A study of Mus musculus with 8 samples.

Results

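The IL-6 and IL-10 cytokine axes were examined in tumor-associated macrophages (TAMs) through 8 genes, chosen by name: the cytokines Il6, Osm, Lif and Il10, and the receptor chains Il6ra, Il6st, Il10ra and Il10rb. All 8 were found by symbol among the 53247 genes of the deposited expression table. RNA-Seq of TAMs compared 4 WT and 4 miR-21-/- samples, to ask how loss of the microRNA miR-21 in the host changes these cells. LLC (Lewis lung carcinoma) cells were grown s.c. in mice of strain C57/BL6, and 14 days later cells that were CD45+ CD11b+ MHCII+ F4/80+ were sorted from the tumors. The mice were 8 weeks old at implantation and are labelled as 10 weeks old. The miR-21-/- mice carry a null allele throughout the body, so that every host cell lacked miR-21 whereas the implanted LLC cells, the same in both groups, did not. The label of miR-21-/- replicate 1 carries 2 numbers. Whether RNA was pooled there is not stated, and it entered as 1 replicate. The labels call the samples biological replicates but do not say that each came from a separate mouse, so p-values measure the spread between these samples.

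IL-6 binds IL-6Rα (Il6ra), and the pair then engages gp130 (Il6st), the signaling chain that LIF and oncostatin M (Osm) also use together with their own receptors. IL-10 binds IL-10R1 (Il10ra), which recruits IL-10R2 (Il10rb), a chain shared with other cytokines of the IL-10 family. Both receptors act through Janus kinases and mainly through STAT3, yet in macrophages IL-10 is known for restraining inflammatory genes, whereas IL-6 is known for both inflammatory and repair-associated responses and for being held back by SOCS3.

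Values are CPM (counts per 1e+06 reads), as scaled by the authors. The depth, inferred from the spacing of low values, lay between 20.2 and 33.4 in units of 1e+06 reads per sample, so that 3 reads, taken here as the floor, were worth 0.0899 to 0.148 CPM. Mir21a was listed at the table's offset of 0.0001 CPM in all 8 samples, so it could not check the genotype labels. Vmp1, the gene that overlaps Mir21a, averaged 124 ± 9.08 CPM in the WT samples against 397 ± 23.4 CPM in those from miR-21-/- mice (SD, n = 4). Of 13363 genes with a mean of at least 1 CPM, 967 (7.24%) passed the threshold of a limma adjusted p of at most 0.005 with a fold change above 1.5, 397 higher and 570 lower in miR-21-/- TAMs. All 9 macrophage markers were present, with sums of 9204 to 11015 CPM (WT) and 7909 to 10574 CPM (miR-21-/-). They did not move together, since Fcgr1 rose (log2 fold change 0.75) while Adgre1 and Csf1r had log2 fold changes of -0.38 and -0.48 with no overlap between genotypes (limma adjusted p = 0.00137 and 0.00525). Summed levels of the 8 neutrophil markers (802 to 1199 CPM in WT, 596 to 774 CPM in miR-21-/-) and of the 6 fibroblast markers (60.7 to 137 CPM, 10.1 to 44.1 CPM) did not overlap between genotypes. Nor did those of B cells (mostly Cd79b, 11.4 to 17.6 CPM, 3.84 to 11.3 CPM), mast cells or basophils (3.27 to 4.71 CPM, 1.46 to 2.80 CPM, with Ms4a2 at or under 3 reads throughout) and tumor or epithelial cells (18.8 to 24.8 CPM, 12.7 to 17.9 CPM). All 5 were lower in miR-21-/- samples, and their part in the values that follow was not tested.

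The mature miR-21a-5p and the places where its seed is matched in these genes are shown because the microRNA is what the genotypes differ in. The mature sequence (RefSeq, GRCm38.p6, chr11:86584120-86584141, minus strand) has its seed, bases 2 to 8, in capitals.
mmu-miR-21a-5p: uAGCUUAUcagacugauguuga
In the longest 3′ UTR that GENCODE vM21 gives for each of the 8 genes, 3 held a match, in capitals here, to the seed (ATAAGCT, 7 bases) or to the seed followed by A (ATAAGCTA, 8 bases). They are read on the strand of the gene, from Il6 at chr5:30019431-30019454, Il6ra at chr3:89869080-89869103 (minus strand) and Il6st at chr13:112508448-112508471, all GRCm38.
Il6 site: cctaacagATAAGCTggagtcaca
Il6ra site: gactttttATAAGCTAagtcaaca
Il6st site: tagaatcaATAAGCTgcaaaaaaa
Only the Il6ra site had 8 bases. Of 11217 tested genes with an annotated 3′ UTR, 2.24% held an 8-base site and 12.5% a site of 7 or 8 bases. The latter share also counts TAAGCTA (7 bases). It was searched for in the 8 genes too and was found there only within the 8-base site. The 3′ UTRs searched were 1668 bases long in Il6, 7102 in Il6ra and 5641 in Il6st. The Il6ra and Il6st sites lie 0.221 kb and 1.59 kb past the end of those genes in RefSeq, so that they exist only in transcripts with the longer end. No match was found in the 3′ UTRs of Osm (1017 bases), Lif (3180), Il10 (706), Il10ra (1693) or Il10rb (711).

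None of the 7 members that could be tested passed the threshold, against 7.24% of all tested genes, whereas 3 of the 4 receptor chains separated the genotypes by sample: Il6st was 1.23-fold higher, and Il10ra and Il10rb were 0.839-fold and 0.827-fold of WT in miR-21-/- TAMs. In limma, 3 of the 7 had an adjusted p at or under 0.05, as did 36.8% of all tested genes, and the same 3 had an unadjusted p under 0.05, as did 47.1% of all tested genes. The groups did not overlap for 3 of the 7, against 35.7% of all tested genes. These shares, 3 of 7 or 42.9%, stand near the background. Fold changes are on the log2(CPM + 1) scale, so those of weakly expressed genes are understated. As scaled by the authors, 2 members had a value above 0 and 5 a value below, with a median of -0.18 beside -0.10 over all tested genes, and rescaling by the median of ratios turned Il6ra from lower to higher. In sorted bulk samples, fewer cells with a transcript and less of it per cell cannot be told apart.

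**Figure D1:**
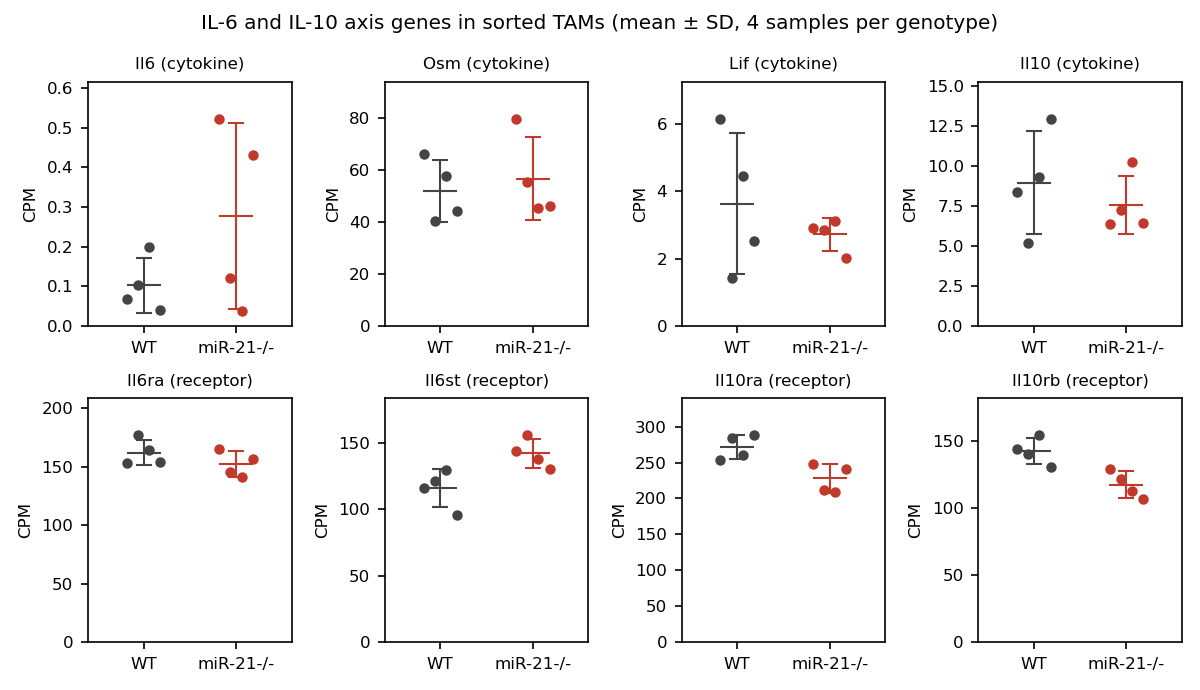
CPM (y axis, linear, from 0) of each gene in every sample, grouped by genotype (x axis), with the mean and SD of 4 samples as lines. The upper panels hold the cytokines, where the genotypes overlap in every panel, and the lower panels the receptor chains, where Il6st, Il10ra and Il10rb separate by genotype.

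Among the cytokines, Il6 (chr5:30013114-30019981, plus strand) was barely detected. Its values were 0.0670, 0.104, 0.198 and 0.0399 CPM in WT samples 1 to 4, and 0.523, 0.120, 0.0385 and 0.430 CPM in miR-21-/- samples 1 to 4. The WT values stand for 2, 3, 4 and 1 reads, those of miR-21-/- TAMs for 14, 4, 1 and 13. Thus miR-21-/- samples 1 and 4 lay above all others and sample 2 lay within the WT range. Sample 3 was the lowest of the 8 in CPM, but level with WT sample 4 at 1 read. The means were 0.102 ± 0.0690 and 0.278 ± 0.235 CPM (SD, n = 4 each). Il6 was below the filter of the fit, and its difference of 0.20 in mean log2(CPM + 1) had a two-sided p = 0.286 in an exact permutation test, which cannot go below 0.0286 with 4 against 4. The miR-21-/- samples themselves ranged from 1 to 14 reads.

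The Il6 promoter is shown because NF-kB and AP-1 are the textbook inducers of this cytokine in macrophages. RefSeq (GRCm38.p6) gives it at chr5:30012864-30013163, plus strand, from 250 bases before to 50 bases after the start, and capitals mark an AP-1 match at -249 and an NF-kB match at -43.
Il6 promoter: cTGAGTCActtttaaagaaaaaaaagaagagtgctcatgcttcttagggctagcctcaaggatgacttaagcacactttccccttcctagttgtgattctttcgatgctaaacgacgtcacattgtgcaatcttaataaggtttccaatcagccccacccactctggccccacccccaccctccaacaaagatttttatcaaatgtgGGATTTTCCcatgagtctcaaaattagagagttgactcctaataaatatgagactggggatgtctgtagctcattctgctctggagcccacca
Both strands were searched for the AP-1 motif TGANTCA, held by 7.81% of 32851 promoters, the NF-kB motif GGNNTTTCC (5.82%) and the STAT motif TTCNNNGAA (8.30%). The promoter table had entries for 4 of the 8 genes. The Lif promoter (chr11:4257318-4257617) held 1 AP-1 match at -228, and those of Il6ra and Il6st held no match to these letters. The regulators listed for Il6 are given with their levels further on.

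Osm (chr11:4236420-4241026, plus strand), the macrophage product that acts on stromal cells through gp130, was the most abundant of the 4 cytokines. It was at 65.8, 40.3, 57.7 and 43.9 CPM in WT samples 1 to 4 and at 79.5, 55.2, 45.2 and 46.2 CPM in miR-21-/- samples 1 to 4. Apart from miR-21-/- sample 1, every miR-21-/- value fell inside the WT range. The means were 51.9 ± 11.9 and 56.5 ± 16 CPM, a log2 fold change of 0.11 ± 0.19 (SE; limma adjusted p = 0.687). The unadjusted 95% interval runs from -20.1% to 45.8%. Without miR-21-/- sample 1 the log2 fold change was -0.064, and without WT sample 2 it was -0.00044.

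Lif lies 16.5 kb beyond Osm on the same strand (chr11:4257557-4272514), and was read far less. Its values were 6.15, 1.42, 4.45 and 2.51 CPM in WT samples 1 to 4 and 2.91, 2.85, 3.11 and 2.02 CPM in miR-21-/- samples 1 to 4. All miR-21-/- values were inside the WT range, and the WT samples were the more scattered, with a coefficient of variation of 57.7% against 17.7%. The means were 3.63 ± 2.10 and 2.72 ± 0.483 CPM, a log2 fold change of -0.21 ± 0.29 (SE; limma adjusted p = 0.605) with an unadjusted 95% interval of -0.85 to 0.44. WT sample 1 decided the sign, since the value was 0.042 without it. Between 41 and 184 reads stood behind the WT values, and between 61 and 95 behind the miR-21-/- values. The neighbours Osm and Lif are 82.3 Mb from Mir21a on the same chromosome.

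Il10 (chr1:131019845-131024974, plus strand), the anti-inflammatory cytokine of the set, was at 8.39, 5.16, 9.30 and 12.9 CPM in WT samples 1 to 4. The miR-21-/- samples 1 to 4 had 6.34, 7.22, 10.2 and 6.42 CPM, again within the WT range. The means were 8.95 ± 3.20 and 7.55 ± 1.82 CPM, a log2 fold change of -0.18 ± 0.23 (SE; limma adjusted p = 0.561). Its unadjusted 95% interval, from -37.9% to 25.3%, holds both a decrease and an increase. Without WT sample 4, the highest, the log2 fold change was 0.00059.

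Il6ra (chr3:89864059-89913196, minus strand) gives the ligand-binding chain that makes a cell responsive to IL-6 itself. Its values were 153, 177, 164 and 154 CPM in WT samples 1 to 4 and 165, 146, 141 and 157 CPM in miR-21-/- samples 1 to 4. The groups overlapped, with means of 162 ± 11 and 152 ± 10.8 CPM and a log2 fold change of -0.09 ± 0.067 (SE; limma adjusted p = 0.318). Relative to the median of all tested genes it stood at 0.013. The unadjusted 95% interval ran from -15.4% to 4.22%. Il6ra was the gene with the 8-base seed site.

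Il6st (chr13:112464070-112510086, plus strand), which encodes gp130, was at 116, 122, 129.4 and 96.0 CPM in WT samples 1 to 4. In miR-21-/- samples 1 to 4 it was at 144, 156, 138 and 130.1 CPM. Every miR-21-/- sample was above every WT sample, although the closest pair, 129.4 and 130.1 CPM, were nearly level. The means were 116 ± 14.3 and 142 ± 10.8 CPM, a log2 fold change of 0.30 ± 0.092 (SE; limma adjusted p = 0.0290), or 0.40 above the median of all tested genes. Its unadjusted 95% interval of 6.72% to 41.7% lies under the 1.5-fold limit. The direction held in 18 of 18 alternative analyses, with log2 fold changes of 0.21 to 0.41, and the adjusted p, from 0.00609 to 0.0853, was at or under 0.05 in 13 of them. It was above 0.05 in limma without WT sample 1 (adjusted p = 0.0523) or without miR-21-/- sample 1 (0.0596), 2 (0.0793) or 3 (0.0519), and with no filter on low values (0.0853).

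Il10ra (chr9:45253837-45269149, minus strand), the IL-10-binding chain, had the highest CPM of the set in every sample. Its values were 254, 284, 259.9 and 288 CPM in WT samples 1 to 4 and 249, 212, 209 and 242 CPM in miR-21-/- samples 1 to 4. All miR-21-/- samples were below all WT samples, with 253.9 and 248.6 CPM as the closest pair. The means were 271 ± 17.1 and 228 ± 20.1 CPM, a log2 fold change of -0.25 ± 0.073 (SE; limma adjusted p = 0.0226), or -0.15 relative to the median of all tested genes. Over 18 alternatives the log2 fold change was -0.30 to -0.14 and the adjusted p 0.0139 to 0.188, at or under 0.05 in 13 of them. Leaving out WT sample 2 (limma adjusted p = 0.0646) or miR-21-/- sample 2 (0.0652) or 3 (0.0646) ended that call, as did rescaling by the median of ratios (0.188) and omitting the filter on low values.

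Il10rb (chr16:91406164-91425834, plus strand), the shared second chain, was at 144, 141, 154 and 130.5 CPM in WT samples 1 to 4. The miR-21-/- samples 1 to 4 were at 129.3, 122, 113 and 107 CPM. The groups again did not overlap, by a margin of 130.5 against 129.3 CPM. The means were 142 ± 9.84 and 118 ± 9.78 CPM, a log2 fold change of -0.27 ± 0.072 (SE; limma adjusted p = 0.0149), or -0.17 relative to the median of all tested genes. Over 18 alternatives it was -0.32 to -0.16 with an adjusted p of 0.00526 to 0.115, and the adjusted p stayed at or under 0.05 in limma whichever of the 8 samples was left out. Rescaling by the median of ratios was the alternative that moved it above 0.05 (0.115).

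**Figure D2:**
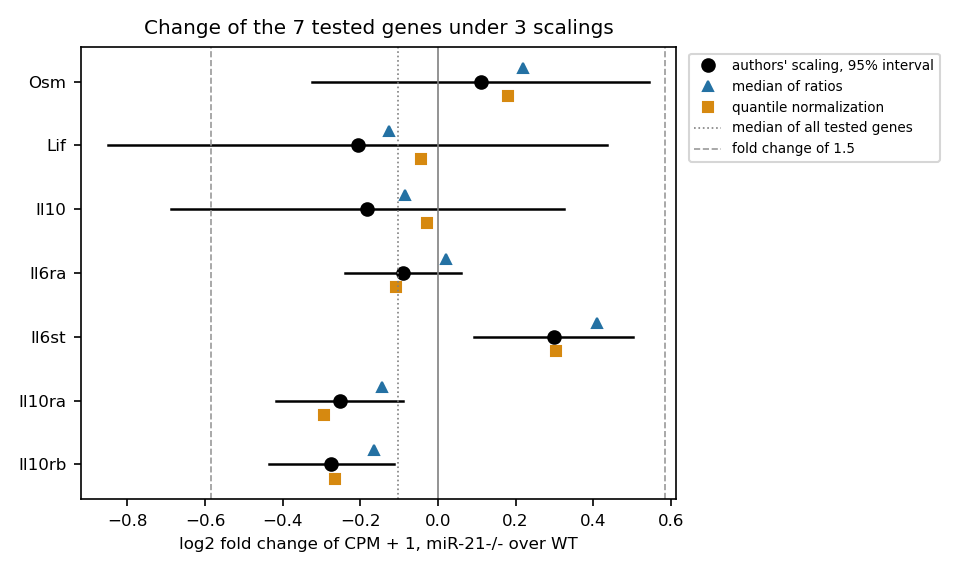
Log2 fold change of CPM + 1 in miR-21-/- over WT TAMs (x axis) for the 7 tested members (y axis), as scaled by the authors (black, with unadjusted 95% interval), rescaled by the median of ratios (blue) or quantile normalized (orange). All intervals of Il6st, Il10ra and Il10rb exclude 0 but none of these 3 points reaches a fold change of 1.5 (dashed lines), and with the median of ratios Il10ra and Il10rb move toward 0, to -0.14 and -0.16.

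Some of these genes share their locus with others, and the sources used here do not say how reads in shared exons were counted. Il10rb overlaps Gm21970, a protein-coding model on the same strand at 0.399 to 4.72 CPM. Il10ra overlaps the processed pseudogene Gm20612 at 0.445 to 1.06 CPM, and Il6ra the antisense transcript Gm42809 at 0.0764 to 0.326 CPM. Each was small beside the receptor it overlaps.

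Between genes, levels were compared per kb of exon (the union of annotated exons). In WT TAMs the order in CPM per kb was Il10ra (77.6 ± 4.88), Il10rb (37.4 ± 2.58), Osm (22.9 ± 5.25), Il6ra (18.8 ± 1.27), Il6st (10.4 ± 1.29), Il10 (6.83 ± 2.44), Lif (0.835 ± 0.482) and Il6 (0.0421 ± 0.0284). In miR-21-/- TAMs the order was the same, at 65.2 ± 5.73, 30.9 ± 2.57, 24.9 ± 7.03, 17.6 ± 1.25, 12.8 ± 0.974, 5.76 ± 1.39, 0.626 ± 0.111 and 0.114 ± 0.0967 CPM per kb. The ranges of neighbours in this order overlapped for Osm and Il6ra and for Il6st and Il10 in WT TAMs, and for Il10rb and Osm in miR-21-/- TAMs. With these lengths, both IL-10 receptor chains were above both IL-6 receptor chains per kb in every sample. The lengths include the long 3′ ends of Il6ra (8642 bases of exon in all) and Il6st (11099 bases), and a transcript with a shorter end would have a higher level per kb. RefSeq ends Il6ra at 89869324 rather than 89864059, and Il6st at 112506860 rather than 112510086. The order, including the place of Il6ra below Osm and Il10rb, depends on which ends are used and was not computed with those of RefSeq.

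Because Il6st and the IL-10 receptor chains lay on opposite sides of 0, their ratios were taken within each library, where scaling cancels. These 3 ratios were chosen after the values were seen and are given as a description, with no test. The WT samples 1 to 4 had 0.757, 0.689, 0.788 and 0.623 for Il6st over Il6ra, the miR-21-/- samples 0.875, 1.07, 0.978 and 0.83. Every miR-21-/- ratio exceeded every WT ratio, by a mean log2 difference of 0.39 that lay between 0.33 and 0.45 with 1 sample left out. Il6st over Il10ra was 0.334 to 0.498 in WT and 0.539 to 0.734 in miR-21-/- samples, a separation that follows from the values of the 2 genes, each of which separates the genotypes in the opposite direction. Il10ra over Il10rb overlapped, at 1.68 to 2.21 in WT and 1.75 to 2.26 in miR-21-/- samples, and its mean log2 difference of 0.022 lay between -0.052 and 0.092 with 1 sample left out.

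**Figure D3:**
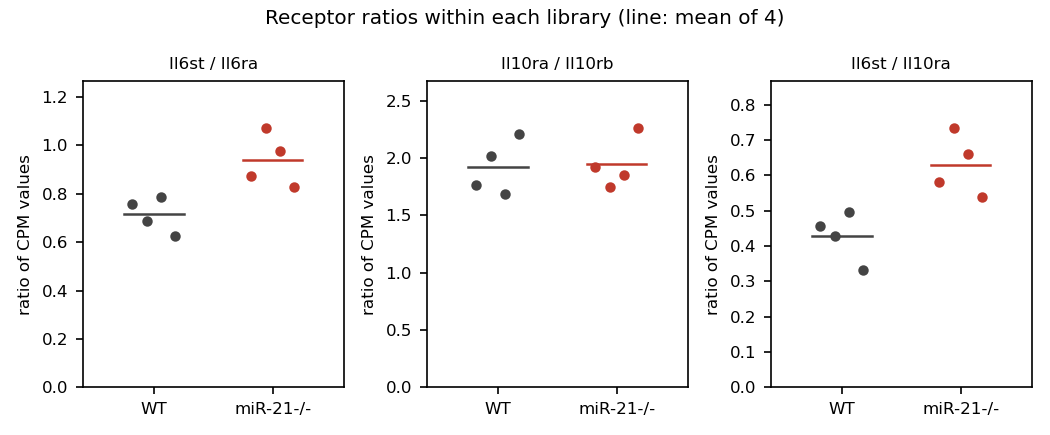
Ratio of CPM values of a pair of receptor genes (y axis, linear, from 0) in each sample by genotype (x axis), with a line at the mean of 4. The ratios of Il6st to Il6ra and to Il10ra are higher in all miR-21-/- samples than in any WT sample, and Il10ra over Il10rb overlaps.

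The 3 tested genes with the profile most like each of these 3 receptor chains were found by the root mean square difference of the centred log2(CPM + 1) over the 8 samples. For Il6st these were Ctsb (0.0417), Nrp1 (0.0422) and Mocos (0.0471). For Il10ra they were Zfp1 (0.0345), Gba2 (0.0385) and Rel (0.0398), and for Il10rb Dap (0.0335), Sh3bp1 (0.0408) and Strn4 (0.0416).

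Around these members, 95 genes were listed by role in both axes, of which 77 were tested and 18 passed the threshold, 13 higher and 5 lower. That is 23.4% of the tested genes, beside 7.24% of all. The lists were chosen with earlier results of these data known, so this difference is not a result about the lists. Among the other IL-6 family cytokines, 3 of 8 were tested, 1 rose and 1 fell, with a median log2 fold change of 0.48. The genes in question encode the subunits of IL-27, whose p28 gene Il27 rose from 4.33 ± 1.33 to 9.48 ± 1.16 CPM (log2 fold change 1.00) while its partner Ebi3 fell from 34.7 ± 5.47 to 21.9 ± 1.44 CPM. The Ebi3 call was lost without WT sample 3 or 4 or miR-21-/- sample 2, and the Il27 call without miR-21-/- sample 3. Clcf1, a ligand of the CNTF receptor, was at 23.4 ± 1.43 and 33.1 ± 2.57 CPM (log2 fold change 0.48 ± 0.072 SE; limma adjusted p = 0.000906), under the fold limit as scaled by the authors but past the threshold with the median of ratios. None of the 6 other IL-10 family cytokines reached the filter, and Il20, Ifnl2 and Ifnl3 were listed at 0.0001 CPM in all samples.

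Of the partner receptors, 4 of 6 in the IL-6 family were tested, with a median log2 fold change of -0.26. Lifr, the chain that pairs with gp130 for LIF, was at 67.9, 102, 62.1 and 63.4 CPM in WT samples 1 to 4 and at 19.8, 18.1, 21.3 and 19.6 CPM in miR-21-/- samples 1 to 4. It fell from 73.9 ± 19.0 to 19.7 ± 1.33 CPM (log2 fold change -1.83 ± 0.14 SE; limma adjusted p = 2.26e-05), a call kept in 18 of 18 alternatives. The fibroblast markers were lower in the same samples, as given above, and their part in this value was not tested. Il27ra and Il11ra1 had log2 fold changes of -0.28 and 0.060, while the oncostatin M receptor gene Osmr was at 0.429 ± 0.283 and 0.170 ± 0.197 CPM, below the filter. Of 5 other IL-10 family receptors 2 were tested. Ifnlr1, which pairs with IL-10R2 to bind type III interferon, fell from 1.94 ± 0.228 to 0.791 ± 0.142 CPM (log2 fold change -0.72; limma adjusted p = 0.00110), a call lost with the replicate number as a block, and Il20rb was at 0.15.

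Values of 4 signal transducers are given here, which do not stand for the list as a whole. Stat3, the main transducer of both axes, averaged 233 ± 12.1 CPM against 299 ± 14.2 CPM, its log2 fold change being 0.36 ± 0.058 (SE; limma adjusted p = 0.00131), under the fold limit. Jak2 was at 69.7 ± 3.20 and 97.1 ± 6.09 CPM (log2 fold change 0.47), also under that limit. Jak1 and Tyk2, listed like Jak2 for both axes, had log2 fold changes of 0.0066 and -0.054.

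Of the 10 inhibitors of these signals 1 passed the threshold, beside 7.24% of all tested genes, and the median was -0.051. Socs1 rose from 5.18 ± 1.09 to 26.2 ± 5.36 CPM (log2 fold change 2.14 ± 0.16 SE; limma adjusted p = 1.71e-05), a call kept in 18 of 18 alternatives. Socs3, which binds gp130 and blunts IL-6 more than IL-10 signals, was at 169 ± 16.7 and 230 ± 17.2 CPM (log2 fold change 0.44 ± 0.080 SE; limma adjusted p = 0.00245), under the fold limit. Socs2 was the lowest of the list at -0.34. IL-6Rα is also released from the cell by ADAM17, which the iRhoms (Rhbdf1 and Rhbdf2) bring to the surface. Adam17 was at 246 ± 7.01 and 248 ± 6.85 CPM, while Rhbdf2 rose from 95.6 ± 5.70 to 145 ± 6.26 CPM (log2 fold change 0.60) and Rhbdf1 fell from 5.40 ± 1.36 to 1.87 ± 0.411 CPM (log2 fold change -1.14). Just over the fold limit, Rhbdf2 was no longer called with WT sample 2 or 4 or miR-21-/- sample 1 left out.

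Of 14 genes known to be induced through STAT3, 11 had a log2 fold change above 0 and 3 below. The median was 0.18 beside -0.10 over all tested genes. The threshold was passed by 2 of the 14, beside 7.24% of all tested genes. Hif1a rose from 228 ± 36.8 to 467 ± 63.5 CPM (log2 fold change 1.03) and Il4ra, a receptor chain for IL-4 and IL-13, from 473 ± 74.5 to 792 ± 71.4 CPM (log2 fold change 0.75). Both are also under the control of other signals. Fos was the lowest at -0.52.

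Of 12 genes that IL-10 induces in macrophages, 9 had a log2 fold change above 0 and 3 below, with a median of 0.13 beside -0.10 over all tested genes, where 8932 of 13363 were below 0. The threshold was passed by 3 of the 12, 2 higher and 1 lower, beside 7.24% of all tested genes. The IL-1 receptor antagonist Il1rn rose from 170 ± 40.5 to 471 ± 77.3 CPM (log2 fold change 1.48), and Il4ra, which this list shares, rose as above. Ddit4, an inhibitor of mTORC1, fell from 91.3 ± 39.8 to 31.6 ± 11.3 CPM (log2 fold change -1.48), but the call was kept in only 6 of 18 alternatives. The scavenger receptor Cd163 had the lowest value, -1.97 (limma adjusted p = 0.0223), and did not pass. Of 10 tested genes that IL-10 lowers, 9 had a log2 fold change above 0 and 1 below, with a median of 0.64. Of these 10, 6 passed the threshold, all of them higher, beside the same 7.24% of all tested genes. Nos2, which makes nitric oxide, rose from 33.3 ± 7.75 to 144 ± 20.7 CPM (log2 fold change 2.10 ± 0.17 SE; limma adjusted p = 3.12e-05), Il1a by a log2 fold change of 1.40 and Tnf by 0.97. The costimulatory genes Cd40 and Cd86 rose by 0.73 and 0.68, and Ptgs2 by 0.61, the calls of Cd86 and Ptgs2 being kept in 10 and 8 of 18 alternatives. Cd86 was lost without WT sample 1, 3 or 4 or any 1 miR-21-/- sample, and Ptgs2 without WT sample 2, 3 or 4 or miR-21-/- sample 1, 2 or 3. For Ddit4 the samples were WT 2, 3 or 4 or any miR-21-/- sample. Cxcl1, at -0.59 (limma adjusted p = 0.0823), was the 1 below 0.

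A pseudocount of 10 ended the calls of Cd40, Ebi3, Ifnlr1, Il27, Rhbdf1 and Rhbdf2, and omitting the filter those of Cd86, Ddit4, Ebi3, Ifnlr1, Il27, Il4ra, Ptgs2, Rhbdf1 and Tnf. Quantile normalization ended those of Ddit4, Ebi3, Ifnlr1 and Ptgs2, and the median of ratios those of Ddit4 and Ebi3. Calls were also gained, those of Clcf1, Pim1 and Ptpn2 with the median of ratios, Ptpn2 with quantile normalization, Csf3 with no filter and Cd163 with the replicate block or without WT sample 4. Sample weights (arrayWeights) ended those of Ddit4, Ptgs2 and Rhbdf2, and eBayes without the trend those of Ddit4 and Ptgs2.

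None of the 9 transcription factors listed for Il10, and none of the 10 regulators listed for Il6 (transcription factors and the RNA-binding proteins Arid5a and Zc3h12a), passed the threshold in limma, with 6 and 4 of them at an unadjusted p under 0.05 (47.1% of all tested genes) and medians of -0.063 and 0.0072. Fos and Jun passed it when WT sample 2 was left out. Maf, an activator of Il10 in macrophages, had means of 858 ± 70.6 and 721 ± 48.3 CPM (log2 fold change -0.25; limma adjusted p = 0.0324). The extremes among the Il10 factors were Atf1 at 0.35 and Ets1 at -0.47. Among those of Il6, Arid5a, which stabilizes Il6 mRNA, was the highest at 0.29 and Fos the lowest at -0.52.

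**Figure D4:**
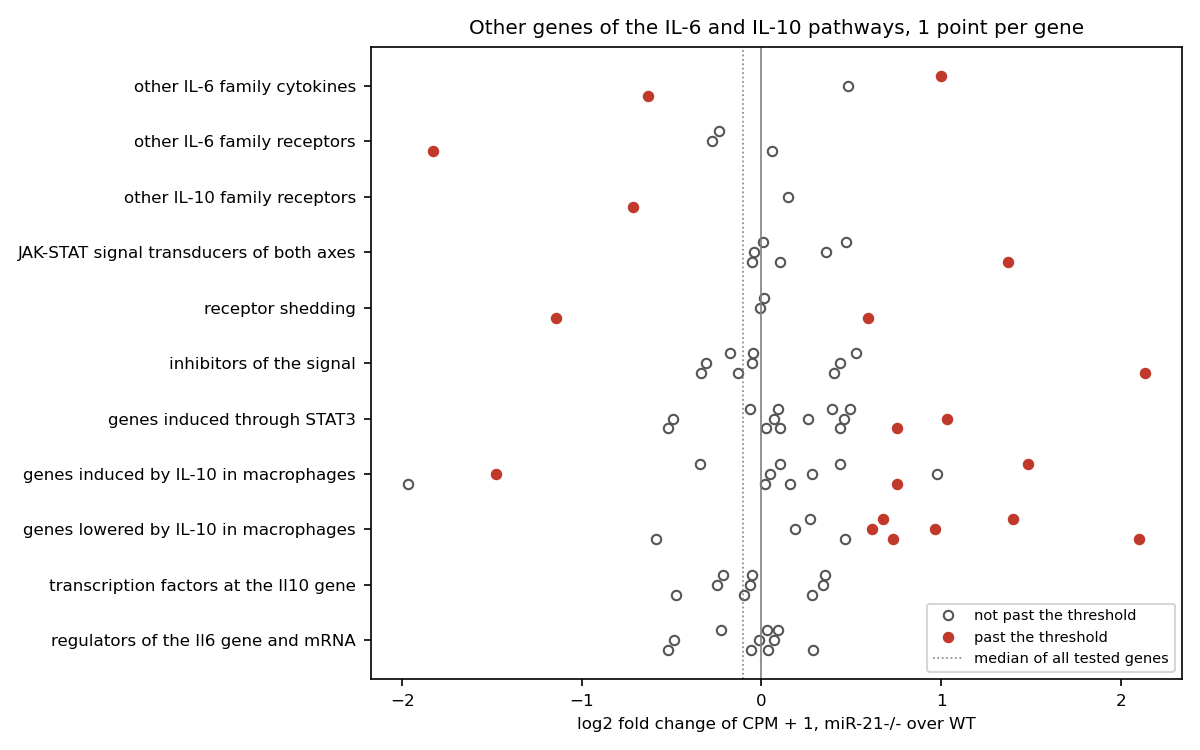
Log2 fold change of CPM + 1 in miR-21-/- over WT TAMs (x axis) of each tested gene in the pathway lists (y axis), with genes past the threshold filled in red. Of the genes that IL-10 lowers 6 of 10 lie past the threshold on the right, and no transcription factor of Il10 or regulator of Il6 does. Of all tested genes 7.24% passed it.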

How the data were processed

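Libraries of mRNA (Kapa mRNA HyperPrep) were made from RNA of sorted TAMs. The authors deposited 1 table of CPM values per gene and sample, raised by 0.0001. The submitters' processing notes name STAR, Partek 7.0 and mm10, and the counting rule and strand are not given in the sources used here. Of the gene symbols, 93.2% are in GENCODE vM21, and 97.1% of these have the same start there. Below 20 reads, 73.7% to 74.6% of values came out as whole reads (within 0.02), so no count test was run.

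From these values, log2(CPM + 1) entered a limma 3.58.1 model (R 4.3.3; lmFit, eBayes with trend) over genes with a mean of at least 1 CPM, and p-values were adjusted by Benjamini-Hochberg over all of them. The limits of the threshold are those the study used for these samples. Single values were compared by exact permutation over samples. Precision is limited by 4 samples per genotype and, for low genes, by reads.

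The members and gene lists were chosen with earlier results of these data known. Named are all members, the genes of each list past the threshold and its highest and lowest gene, genes with profiles like a member past the threshold, Mir21a and Vmp1. A gene that this rule selects is not reported here. Since no member passed, similar profiles were given for the 3 with an adjusted p at or under 0.05. That step, the receptor ratios and the other list genes named (Clcf1, Il27ra, Stat3, Jak1, Jak2, Tyk2, Socs3, Adam17, Osmr, Maf) were chosen after their values were seen. The fit was repeated with pseudocounts of 0.1 and 10, without the filter and with a minimum of 5 CPM, after quantile normalization or rescaling by the median of ratios, with duplicate symbols reduced to the highest, eBayes without trend, arrayWeights, a replicate block, other thresholds and leaving out each sample. On simulated data for this comparison (13247 genes, normal noise), changes were placed in 200 genes above about 5 CPM. Of these, 90% were recovered at a log2 change of 1 and 98% at 1.5, and no unchanged gene was called. Weaker genes and smaller changes, such as those of the members, were not simulated. Figures were drawn with matplotlib 3.10.9.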

Additional observations from a re-analysis of the deposited data

Results flagged for a closer look

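In 7 of 74 groups of 4, taken over the 37 genes named from the members and lists, the highest or lowest sample stood far from the other 3 by Dixon's criterion, which chance gives in about 1 of 20 groups. None of the members was among them. In miR-21-/- sample 1, Hif1a was at 561 CPM (others 425 to 445), Tnf at 75.3 CPM (55.3 to 58.2), Ets1 at 51.3 CPM (40.0 to 41.5) and Atf1 at 49.1 CPM (55.9 to 57.0). In miR-21-/- sample 4, Il4ra was at 686 CPM (820 to 839) and Rhbdf1 at 1.26 CPM (2.05 to 2.11). In WT sample 2, Lifr was at 102 CPM (62.1 to 67.9), which is farther from the miR-21-/- values than the other WT samples.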

How the results depend on the processing

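In every alternative run, none of the members passed the threshold, and Il6st, Il10ra and Il10rb kept their direction in 18 of 18. Genes past the threshold numbered 453 (251 higher, 202 lower) with a pseudocount of 10, 515 (245 lower) with no filter and 1974 with no fold change limit. Quantile normalization gave 486 higher and 324 lower, and the median of ratios 513 and 339, against 397 and 570 as scaled by the authors. With 1 sample left out, 358 to 594 were lower. Members with an adjusted p at or under 0.05 in limma numbered 1 with no filter, 1 with the median of ratios and 1 to 3 with 1 sample left out, the lowest without miR-21-/- sample 2 or 3. Pathway list genes past the threshold numbered 10 with no filter. Il6ra turned to 0.020 with the median of ratios, which shifts all genes by a common factor per library. With 1 sample left out, log2 fold changes were -0.064 to 0.23 for Osm, -0.13 to -0.048 for Il6ra (smallest without WT sample 2, then -0.056 without miR-21-/- sample 3), -0.48 to 0.042 for Lif and -0.39 to 0.00059 for Il10, and the log2 ratio of Il10ra to Il10rb differed by -0.052 to 0.092. With a replicate block, 907 genes passed and 3 members had an adjusted p at or under 0.05. The block used the replicate numbers of the labels' descriptions, whereas the titles number miR-21-/- samples differently, and pairs by title were not tested. After each gene's mean within its genotype was subtracted, samples paired by description correlated at 0.086, -0.11, -0.15 and 0.23, and were not taken as pairs. Where another value of a member moved, the cause was not tested. Il6 rests on 1 to 14 reads per sample, and its difference was 0.11 without miR-21-/- sample 1, 0.11 to 0.29 over all samples left out, and 0.71 with a pseudocount of 0.1.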
